A study of Homo sapiens with 6 samples.

Results

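The genes described here are 10 of the 60612 genes in the deposited table: the MNK kinase genes MKNK1 and MKNK2, the genes of the cap-binding complex eIF4F and of its inhibitors (EIF4E, EIF4EBP1, EIF4EBP2, EIF4G1, EIF4A1, EIF4A2, PDCD4), and the readthrough gene SENP3-EIF4A1, which shares exons with EIF4A1. They were chosen by symbol, partly for the counts that some of them show in these 6 libraries, so the values of these genes between the groups are a description and carry no test. Total RNA was sequenced from U87, an established cell line of human glioblastoma, in 3 libraries of cells carrying a scramble control shRNA (NC) and 3 libraries of cells carrying an shRNA against PRMT6 (shPRMT6), an arginine methyltransferase. Both groups were stable U87 lines made with shRNA lentivirus and selected with puromycin. Which of the study's PRMT6 shRNAs was sequenced is not named, so what follows from lower PRMT6 and what follows from that shRNA alone cannot be told apart. The study calls the 3 libraries of each group independent replicates.

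In eIF4F, the cap-binding protein eIF4E (EIF4E), the scaffold eIF4G (EIF4G1) and an RNA helicase of the eIF4A type (EIF4A1 or EIF4A2) join at the 5′ cap of an mRNA and bring it to the small ribosomal subunit. The 4E-binding proteins (EIF4EBP1, EIF4EBP2) hold eIF4E away from eIF4G until mTORC1 phosphorylates them, and PDCD4 binds eIF4A and blocks its helicase activity. The MNK kinases (MKNK1, MKNK2) dock on eIF4G and phosphorylate eIF4E, and are themselves switched on by ERK and p38 MAP kinases. Phosphorylation of eIF4E by the MNK kinases is a known feature of glioma cells.

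Total counts ran from 56388161 to 75887696 in NC and from 61805330 to 67630740 in shPRMT6. The count of PRMT6 itself, scaled to library size with TMM factors (CPM), was 9.33, 7.97 and 7.19 in NC, and 3.57, 4.58 and 5.24 in shPRMT6. Values of a group are always given in the order of its replicate numbers. PRMT6 was lower in shPRMT6 (log2 difference -0.87, edgeR quasi-likelihood test, Benjamini-Hochberg adjusted p = 0.0225). That call was lost without NC replicate 1 (adjusted p = 0.0613), shPRMT6 replicate 1 (0.0588) or shPRMT6 replicate 2 (0.0713). VIM, CD44 and NES were detected in every library, and CDKN2A and MTAP were at or below 0.0247 FPKM. The astrocyte markers S100B (a count of 0 in every library) and GFAP (at most 0.0647 FPKM) were absent or close to it. Of the other glioma markers, SOX2 was also close to absent (at most 0.136 FPKM), and OLIG2 was low (0.546 to 0.829 FPKM). The 10 markers of other cell types summed to 5.45 to 5.68 FPKM in NC and 5.29 to 5.91 FPKM in shPRMT6, most of it SNAP25, and CD3E and KRT5 had no count in any library. FPKM is the count scaled to gene length and library size.

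The sequences shown first are a junction of SENP3-EIF4A1 and the promoter windows of MKNK2 and MKNK1. SENP3-EIF4A1 (ENSG00000277957, chromosome 17, 7563287 to 7578715, plus strand, GRCh38) runs from the gene of a SUMO protease, SENP3, into the gene of the helicase EIF4A1. The join of its exons 10 and 11, at chr17:7571450-7571479 and chr17:7572284-7572313, lies in its coding sequence and is found in no other gene of the GENCODE 29 annotation. That coding sequence ends at 7572392, in exon 11, before the EIF4A1 gene starts at 7572706. The exon bases it shares with EIF4A1 are thus not coding in the readthrough gene. In the 60 bases below, lower case is the end of exon 10 and capitals mark the start of exon 11, so a read across that point lies in the readthrough gene alone.
SENP3-EIF4A1 junction: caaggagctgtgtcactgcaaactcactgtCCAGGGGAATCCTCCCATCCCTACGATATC
The 250 bases before the start of MKNK2 (chr19:2051245-2051494) and of MKNK1 (chr1:46604269-46604518) are from RefSeq (GRCh38.p14), are written along the minus strand on which both genes lie, and are shown because the counts of these paralogs differed in opposite directions. The start used for MKNK1 lies inside the gene as GENCODE 29 draws it, so it is one of several starts. Capitals mark matches on either strand to GGGCGG, the core of the GC box, and to TATAA.
MKNK2 promoter: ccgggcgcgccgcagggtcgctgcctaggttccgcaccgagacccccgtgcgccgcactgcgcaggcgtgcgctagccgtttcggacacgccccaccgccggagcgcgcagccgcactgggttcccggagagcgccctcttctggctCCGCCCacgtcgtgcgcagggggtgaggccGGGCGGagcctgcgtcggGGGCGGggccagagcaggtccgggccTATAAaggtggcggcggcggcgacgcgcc
MKNK1 promoter: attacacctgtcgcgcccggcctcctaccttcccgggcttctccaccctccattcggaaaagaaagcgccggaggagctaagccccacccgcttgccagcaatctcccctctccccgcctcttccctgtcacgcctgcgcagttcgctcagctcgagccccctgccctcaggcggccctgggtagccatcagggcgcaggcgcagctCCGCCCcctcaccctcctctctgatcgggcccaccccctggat
The MKNK2 window held 3 GGGCGG matches and 1 TATAA match, and the MKNK1 window held 1 GGGCGG match. GGGCGG was in 42.6% and TATAA in 18.9% of 35116 RefSeq promoter windows of this length. Among the 9 members with a window, 7 held GGGCGG and 3 (EIF4A1, EIF4A2 and MKNK2) held TATAA. These matches are letters in a window and say nothing of binding.

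The MNK kinase genes differed most clearly in MKNK2 (ENSG00000099875, chromosome 19, 2037465 to 2051244, minus strand). MKNK2, the kinase of the pair with high activity in unstimulated cells, stood at 56.5, 50.4 and 50.7 CPM in NC, against 18.1, 17.5 and 17.3 CPM in shPRMT6. The groups lay far apart, and the libraries within each group lay close together. The means were 52.5 ± 3.43 CPM (SD, n = 3) in NC and 17.6 ± 0.391 CPM in shPRMT6, a log2 difference of -1.58 (SE 0.0801), which is 2.98-fold lower. In bulk RNA, fewer cells that express a gene and less of its RNA per cell cannot be told apart. No exon base of MKNK2 overlaps another annotated gene, and none of its 75-base stretches occurs in another annotated transcript. The difference stayed between -1.60 and -1.52 whichever library was left out.

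MKNK1 (ENSG00000079277, chromosome 1, 46557408 to 46616843, minus strand), the kinase of the pair that depends more on ERK and p38 for its activity, had 16.1, 9.52 and 16.9 CPM in NC, and 18.9, 21.1 and 19.4 CPM in shPRMT6. Every shPRMT6 library lay above every NC library, by a small margin from NC replicates 1 and 3 and a wide one from NC replicate 2. The log2 difference was 0.48 (SE 0.217), and 0.26 (SE 0.096) without NC replicate 2. On the FPKM scale, which divides by a gene length, MKNK2 was 5.48, 8.29 and 4.66 times MKNK1 in NC and 1.48, 1.29 and 1.38 times MKNK1 in shPRMT6. The FPKM of both kinase genes added up came to 10.6, 9.09 and 10 in NC and to 4.88, 5.01 and 4.82 in shPRMT6. Per length, MKNK2 was thus above MKNK1 in each library, with a smaller lead in shPRMT6. That order depends on the lengths used, and merged exons came to 8070 bases for MKNK1 and 5221 for MKNK2. In CPM, which does not divide by length, MKNK2 was above MKNK1 in each NC library. It was below MKNK1 in each shPRMT6 library (18.1, 17.5 and 17.3 against 18.9, 21.1 and 19.4 CPM).

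**Figure D1:**
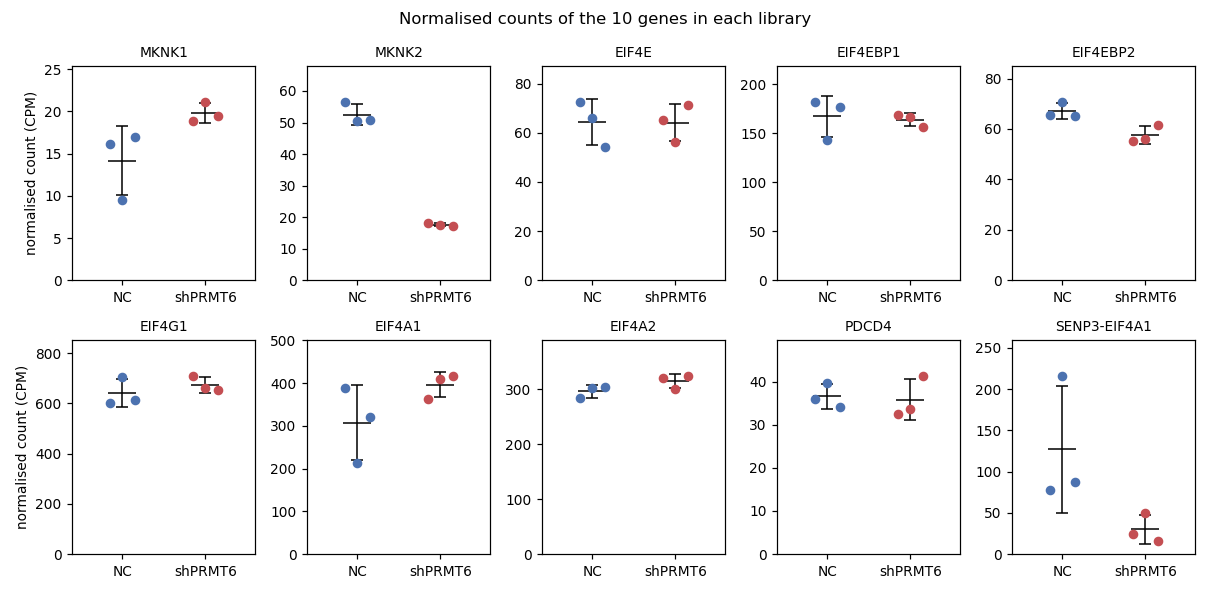
Normalised counts (CPM after TMM scaling, each panel from 0 on its own scale) of the 10 genes, with one point per library (blue, NC; red, shPRMT6), the mean as a line and bars of 1 SD over 3 libraries. MKNK2 is near 52.5 in NC and 17.6 in shPRMT6 with little spread, while SENP3-EIF4A1 spreads from 77.9 to 216 within NC.

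Among all 18106 genes tested, 9.06% were lower and 9.51% were higher in shPRMT6 at an adjusted p under 0.05 (18.6% in either direction). All 10 members were tested. Of these 10, MKNK2 and SENP3-EIF4A1 were past that threshold, both lower, and none was higher. Since the same comparison took part in choosing the members, nothing is read from that count, which was 1 (MKNK2) with any one library but shPRMT6 replicate 2 left out. The groups did not overlap in CPM for 4 members (MKNK1, MKNK2, EIF4EBP2 and SENP3-EIF4A1), against 40.2% of all genes tested. The median log2 difference was -0.02 over the members and -0.01 over all genes tested. The plot of log2 differences shows the other 8 members between -0.22 and 0.48.

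**Figure D2:**
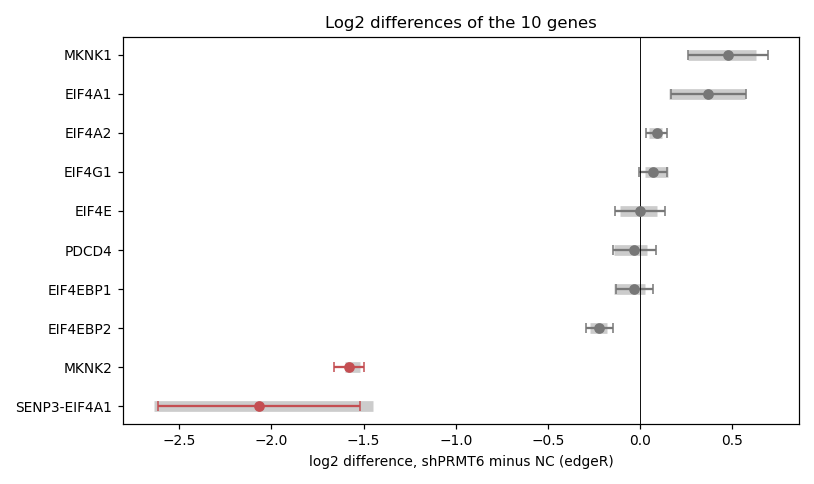
Log2 difference of each gene (shPRMT6 minus NC, edgeR), with bars of 1 SE and grey bands from the lowest to the highest value when each library was left out in turn; red marks the 2 genes past an adjusted p of 0.05. The band of MKNK2 runs from -1.60 to -1.52 and that of SENP3-EIF4A1 from -2.64 to -1.45.

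The cap-binding protein and the scaffold stood at like levels in both groups. EIF4E (ENSG00000151247, chromosome 4, 98871684 to 98930637, minus strand), the substrate of the MNK kinases, had 72.5, 66.1 and 54.1 CPM in NC, and 65.2, 56.2 and 71.1 CPM in shPRMT6. Its groups overlapped throughout, with a log2 difference of 0.00 (SE 0.134). EIF4G1 (ENSG00000114867, chromosome 3, 184314495 to 184335358, plus strand), the scaffold on which the MNK kinases dock, had 603, 704 and 614 CPM in NC, and 709, 660 and 652 CPM in shPRMT6. The groups again overlapped, and the log2 difference was 0.07 (SE 0.0752). RNA levels do not show how much eIF4E was phosphorylated, which was not measured in these libraries.

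Of the inhibitors of eIF4E, EIF4EBP1 (ENSG00000187840, chromosome 8, 38030341 to 38060365, plus strand) was the most abundant member per length, at 173, 137 and 171 FPKM in NC and 162, 161 and 150 FPKM in shPRMT6. Its groups overlapped, and its log2 difference was -0.03 (SE 0.102). EIF4EBP2 (ENSG00000148730, chromosome 10, 70404379 to 70428618, plus strand), the form best known from the brain, had 65.5, 70.7 and 65 CPM in NC, and 55.2, 56.1 and 61.5 CPM in shPRMT6. Each shPRMT6 library was below each NC library, with a log2 difference of -0.22 (SE 0.073) that was not past the threshold. In FPKM, EIF4EBP1 was 17.2 to 23.7 times EIF4EBP2 in NC and 21.5 to 26 times EIF4EBP2 in shPRMT6. EIF4EBP1 was also 34.6 to 52.4 times EIF4E in NC and 35 to 47.6 times EIF4E in shPRMT6, so both ratios overlapped between the groups. The size of these ratios depends on the gene lengths used. Merged exons came to 1073 bases for EIF4EBP1, 7257 for EIF4EBP2 and 14067 for EIF4E. In CPM, which does not divide by length, the NC means were 168, 67.1 and 64.3 for these genes in turn.

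PDCD4 (ENSG00000150593, chromosome 10, 110871795 to 110900006, plus strand), the inhibitor of eIF4A, had 36, 39.7 and 34 CPM in NC, and 32.5, 33.7 and 41.3 CPM in shPRMT6. The groups overlapped, with a log2 difference of -0.03 (SE 0.118). Of the exon bases of PDCD4, 28.1% lie opposite exons of BBIP1, a gene of cilium assembly. Use of strand is not given in the sources used here, so whether reads from this stretch of PDCD4 and BBIP1 were told apart is not known. BBIP1 stood at 23.9 to 28.5 CPM in NC and 21.2 to 22.6 CPM in shPRMT6.

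The helicase EIF4A2 (ENSG00000156976, chromosome 3, 186783205 to 186789900, plus strand) was the steadiest member within groups, at 283, 302 and 304 CPM in NC and 320, 300 and 324 CPM in shPRMT6. Its log2 difference was 0.09 (SE 0.058). Several small RNA genes lie within its exons (10.5% of its exon bases on the same strand), and each stood at 1.59 CPM or less in every library. EIF4A1 (ENSG00000161960, chromosome 17, 7572706 to 7579005, plus strand), its close paralog, was less steady, at 388, 214 and 321 CPM in NC and 364, 409 and 417 CPM in shPRMT6. NC replicate 2 was the lowest library by a wide margin, and NC replicate 1 lay within the shPRMT6 range. The log2 difference of EIF4A1 was 0.37 (SE 0.204), and 0.16 (SE 0.104) without NC replicate 2.

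SENP3-EIF4A1 had the largest log2 difference of the 10 members and the largest spread. It stood at 77.9, 216 and 87.2 CPM in NC, and at 24.3, 49.9 and 16.5 CPM in shPRMT6. The groups did not overlap, yet NC replicate 2 was far above the other NC libraries. Over all genes tested that library did not stand out in this way: 1.22% of genes were more than 2-fold above or below both other libraries of the group, against 1.15% to 1.33% in the other 5 libraries. It did have the largest total count of all (75887696). The NC pairs that hold it also differed more by chi-square over its degrees of freedom (85.7 and 69.6) than NC replicates 1 and 3 did (58.1). The shPRMT6 pairs gave 52.2, 54 and 61.5. That measure was taken on raw counts and rises with depth, so it cannot separate this library's spread from its larger total. The log2 difference was -2.07 (SE 0.548), and -1.45 (SE 0.453) without NC replicate 2. With other libraries dropped it was -2.33 (NC replicate 1), -2.28 (NC replicate 3), -1.94 (shPRMT6 replicate 1), -2.64 (shPRMT6 replicate 2) and -1.77 (shPRMT6 replicate 3).

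Of the 3519 exon bases of SENP3-EIF4A1, 42.9% are also exon bases of SENP3 and 45.1% are also exon bases of EIF4A1, all on the same strand. That leaves 422 bases (12%) in neither gene, in the first part of exon 11. A further gene, ENSG00000264772 (AC016876.2, a processed transcript from 7572826 to 7582024), shares 1466 bases with SENP3-EIF4A1 and 2186 with EIF4A1. It reaches downstream past both, and whether it shares exons with CD68 was not examined, so its counts may hold reads of CD68. The upstream gene SENP3 had 63.9, 17 and 60.5 CPM in NC, and 69.3, 60.8 and 64.1 CPM in shPRMT6. SENP3 and EIF4A1 were thus both lowest in NC replicate 2, the library in which the readthrough gene was highest. ENSG00000264772 had 34.4, 27.1 and 28.1 CPM in NC, and 24.3, 80.8 and 76.7 CPM in shPRMT6.

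Added up, EIF4A1 and SENP3-EIF4A1 came to 466, 429 and 408 CPM in NC, and 388, 459 and 433 CPM in shPRMT6. The summed groups overlapped, with a log2 difference of -0.03 (SE 0.0824) when both were counted as 1 gene. With SENP3 included, the sum was 530, 446 and 468 CPM in NC and 457, 520 and 497 CPM in shPRMT6, a log2 difference of 0.03 (SE 0.0832). With ENSG00000264772 also included, the sum was 564, 473 and 496 CPM in NC and 482, 600 and 574 CPM in shPRMT6. The log2 difference was then 0.11 (SE 0.104). The latter sums were chosen after the data had been seen. Of the counts of EIF4A1, SENP3-EIF4A1 and SENP3 together, the readthrough gene took 14.7%, 48.3% and 18.6% in NC and 5.31%, 9.6% and 3.31% in shPRMT6, while EIF4A1 took 73.2%, 47.9% and 68.5% in NC and 79.6%, 78.7% and 83.8% in shPRMT6. Each of these sums overlapped between the groups, while the shares of the readthrough gene and of EIF4A1 did not. How a read in a shared exon was assigned is not given in the sources used here, so more readthrough RNA and another division of shared reads cannot be told apart from these counts. The exon map with the stacked counts shows the overlapping exons and the counts of EIF4A1, SENP3-EIF4A1 and SENP3 in each library.

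Among the other genes of this neighbourhood, SOX15, a transcription factor gene, was higher in shPRMT6 (1.67 ± 0.377 CPM in NC and 3.53 ± 0.114 CPM in shPRMT6, SD, n = 3, log2 difference 1.08, SE 0.207, edgeR adjusted p = 0.0153). CD68, the next gene downstream, had 242, 256 and 148 CPM in NC and 316, 149 and 144 CPM in shPRMT6, with no difference past the threshold (log2 difference -0.08, SE 0.355). MPDU1, FXR2 and TNFSF13 were not past the threshold either, at log2 differences of 0.03, -0.06 and -0.22. SNORA67, a small RNA gene within EIF4A1, had raw counts of 139, 146 and 160 in NC and 202, 1 and 90 in shPRMT6 (log2 difference -0.62, SE 1.09). SNORA48, SNORD10, TNFSF12 and the readthrough TNFSF12-TNFSF13 were too low to be tested.

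Other readthrough genes were counted to set SENP3-EIF4A1 beside its kind. Of 133 genes whose symbol joins the symbols of a pair of other genes in the table, 66 were tested, 6 were lower and 3 were higher at an adjusted p under 0.05 (13.6% in either direction, against 18.6% of all genes tested), and their median log2 difference was -0.22 against -0.01 over all genes tested. Without NC replicate 3 the count past the threshold was 4 in place of 9. POC1B-GALNT4 fell from 5.87 ± 3.79 to 0.0156 ± 0.000752 CPM (SD, n = 3, edgeR adjusted p = 0.00118), which in shPRMT6 is a count of 1 in each library. RPS10-NUDT3 fell from 82.3 ± 20.9 to 37.3 ± 6.36 CPM (log2 difference -1.14, SE 0.216, edgeR adjusted p = 0.0148), a call lost without NC replicate 3, shPRMT6 replicate 1 or shPRMT6 replicate 2 (adjusted p of at most 0.0608). FPGT-TNNI3K rose from 0.314 ± 0.0362 to 1.47 ± 0.351 CPM (log2 difference 2.22, SE 0.3, adjusted p = 0.00476), and CRYZL2P-SEC16B rose from 2.2 ± 0.602 to 8.34 ± 1.54 CPM (log2 difference 1.93, SE 0.25, adjusted p = 0.0042). How far these genes share exons with the genes they are named for was not examined, so their counts are uncertain.

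The order of the members by FPKM in NC was EIF4EBP1 (160 ± 20.5, SD, n = 3), EIF4G1 (61.6 ± 5.39), EIF4A1 (49.7 ± 14), EIF4A2 (40.6 ± 1.97), SENP3-EIF4A1 (30.4 ± 18.4), MKNK2 (8.45 ± 0.483), EIF4EBP2 (7.53 ± 0.358), PDCD4 (6.76 ± 0.524), EIF4E (3.84 ± 0.52) and MKNK1 (1.46 ± 0.424). Neighbours overlapped in their library values from EIF4G1 down to SENP3-EIF4A1, and EIF4EBP2 overlapped with PDCD4. In shPRMT6, MKNK2 (2.85 ± 0.0638 FPKM) came after EIF4E (3.86 ± 0.459 FPKM), at place 9 in place of 6, and was still above MKNK1 (2.06 ± 0.118 FPKM). SENP3-EIF4A1 (7.26 ± 4.19 FPKM in shPRMT6) then overlapped with PDCD4 (6.65 ± 0.897 FPKM).

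**Figure D3:**
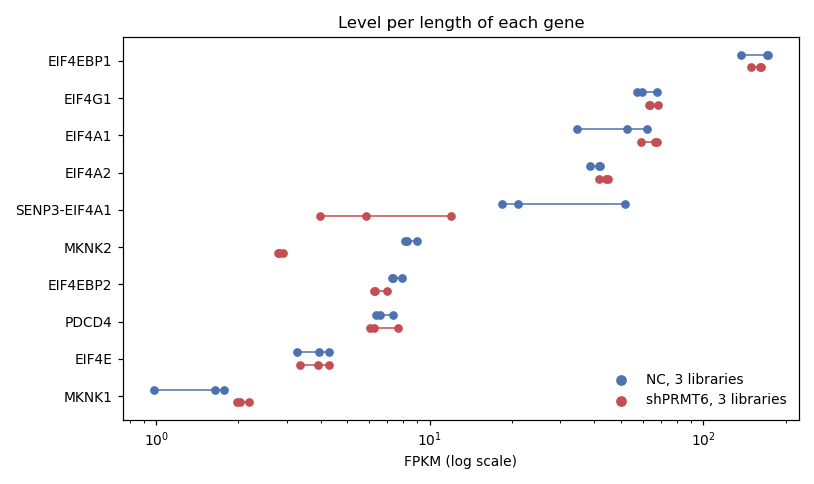
FPKM of the 10 genes on a log scale, ordered by their mean in NC, with one point per library and a line from the lowest to the highest (blue, NC; red, shPRMT6). MKNK2 lies at 8.11 to 9.01 in NC and 2.8 to 2.92 in shPRMT6, and SENP3-EIF4A1 at 18.4 to 51.6 in NC and 3.97 to 12 in shPRMT6.

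Genes whose log2 CPM followed that of MKNK2 most closely over the 6 libraries, among 10050 genes whose log2 CPM averaged 3 or more, were SERPINB2 (Pearson's r 0.9997, log2 difference -1.57), SDC4 (0.9992, -1.67), DONSON (0.9991, -0.76) and PFKFB4 (0.999, -0.65). SERPINB2 codes for an inhibitor of plasminogen activators, SDC4 for a heparan sulfate proteoglycan, DONSON for a replication protein and PFKFB4 for a regulator of glycolysis. The 6 points of each correlation fall into the 2 groups and share library and depth, so r mostly reflects the difference between groups and is given as a description.

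Genes that act around the members were taken from 4 lists of 100 genes in all, none of them members. At an adjusted p under 0.05, 9 of the 100 were higher and 14 lower (23%, against 18.6% of all genes tested), and their median log2 difference was -0.06. With 1 library dropped, that count was 17, 25 and 12 (NC replicates 1, 2 and 3 in turn) or 11, 10 and 13 (the same for shPRMT6). With the threshold of the study's methods, an absolute log2 difference above 1 and an unadjusted p under 0.05, 1 of the 100 passed, MAPK14. It was not among the genes past an adjusted p of 0.05 (edgeR adjusted p = 0.0967). All differences past the adjusted threshold in these lists were therefore smaller than 2-fold. The errors below are SD over 3 libraries, and each adjusted p is from edgeR's quasi-likelihood test over all 18106 genes.

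Of the 18 RAS, RAF and MAP kinase genes upstream of the MNK kinases, 4 were lower and 1 was higher (27.8%, against 18.6% of all genes tested). The log2 difference was below 0 for 15 of them (median -0.21), against 9250 of the 18106 genes tested (median -0.01). With 1 library dropped, the count past the threshold was 3, 7 and 2 (NC replicates 1, 2 and 3 in turn) or 3, 3 and 3 (the same for shPRMT6). MAP2K2, which activates ERK, fell from 174 ± 10.7 to 125 ± 8.23 CPM (log2 difference -0.47, adjusted p = 0.00845). MAP2K1, its paralog, fell from 196 ± 4.52 to 158 ± 2 CPM (-0.31, adjusted p = 0.00873). Both calls held whichever library was left out. ARAF, which activates these kinases, was lower (-0.37, adjusted p = 0.0309), and its paralog BRAF was higher (35.7 CPM in NC and 54.9 CPM in shPRMT6, 0.62, adjusted p = 0.0121). The call of ARAF was lost in 5 of the 6 fits that dropped a library, all but that without NC replicate 2 (adjusted p up to 0.105), and that of BRAF without NC replicate 3 (0.052). MAPK3, an ERK gene (104, 91.5 and 103 CPM in NC, 90.9, 86 and 83.9 CPM in shPRMT6), was not past the threshold. The p38 gene MAPK14 had 24.7, 64.4 and 22.4 CPM in NC, and 78.3, 89.3 and 81.6 CPM in shPRMT6. NC replicate 2 stood apart from the other NC libraries there too, and the log2 difference of 1.16 (SE 0.401) was not past the threshold (adjusted p = 0.0967). MAPK3 and MAPK14 were chosen for the text after their values had been seen.

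Of the 21 relatives of the cap-binding proteins and the scaffold, 5 were lower and 1 was higher. EIF4H, a cofactor that stimulates eIF4A, was lowest in p and fell from 592 ± 16.6 to 400 ± 10.3 CPM (log2 difference -0.57, SE 0.0496, adjusted p = 0.00126), with or without any one library. CYFIP2, whose protein family binds eIF4E, was lower (-0.52, adjusted p = 0.0145), as were PABPC1, the poly(A)-binding protein that bridges to eIF4G (1110, 1030 and 1000 CPM in NC, 824, 863 and 689 CPM in shPRMT6, -0.40, adjusted p = 0.0282), and EIF4A3, the helicase of the exon junction complex (-0.26, adjusted p = 0.0404). PAIP2, an inhibitor of poly(A)-binding protein, was higher (0.35, adjusted p = 0.0129). Apart from EIF4H these calls depended on single libraries: CYFIP2 lost it without any one shPRMT6 library (adjusted p up to 0.0632), PABPC1 without any one NC library or shPRMT6 replicate 1 (up to 0.0723), EIF4A3 without any one library (up to 0.132) and PAIP2 without NC replicate 3 or shPRMT6 replicate 2 (up to 0.058). The third 4E-binding protein gene, EIF4EBP3, was low (1.29, 0.395 and 1.25 CPM in NC, 0.267, 0.78 and 0.207 CPM in shPRMT6) and is also part of a readthrough gene, ANKHD1-EIF4EBP3. It was named after its values had been seen.

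Of the 23 genes of mTORC1, its S6 kinases and PDCD4 turnover, 4 were lower and 4 were higher. RPS6KA1, an ERK-activated S6 kinase, fell from 7.76 ± 1.04 to 4.01 ± 0.269 CPM (log2 difference -0.95, SE 0.15, adjusted p = 0.00779). RPTOR, the mTORC1 subunit that recruits substrates, was lower (-0.38, adjusted p = 0.00989), and TBC1D7, a subunit of the TSC complex that restrains mTORC1, rose from 13.7 ± 1.88 to 24.8 ± 1.16 CPM (0.86, adjusted p = 0.00532). PIK3CA, a catalytic subunit of PI3-kinase, was higher (0.51, adjusted p = 0.00886). Those 4 calls held whichever library was left out. RHEB, the activator of mTORC1 (-0.40, adjusted p = 0.0136), RPS6, the ribosomal protein that S6 kinases phosphorylate (-0.32, 0.016), and BTRC, the ubiquitin ligase subunit that targets PDCD4 (0.28, 0.0453), were past the threshold with all libraries. RHEB lost its call without shPRMT6 replicate 2 or 3 (adjusted p up to 0.0623), RPS6 without any one shPRMT6 library (up to 0.0701) and BTRC in all 6 (up to 0.157).

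Of the 38 genes of the 43S preinitiation complex and of eIF2 control, 1 was lower and 3 were higher (10.5%, the lowest share of the 4 lists), with a median log2 difference of 0.01. EIF2AK4, the eIF2 kinase that senses uncharged tRNA, rose from 65 ± 2.38 to 88.1 ± 4.12 CPM (0.44, SE 0.0652, adjusted p = 0.00649), whichever library was left out. EIF2AK1, the heme-regulated eIF2 kinase, was higher (0.31, adjusted p = 0.0197), as was EIF1B (0.34, adjusted p = 0.0271), and the scanning factor EIF1AX was lower (-0.37, adjusted p = 0.0177). EIF2AK1 lost its call without NC replicate 3, shPRMT6 replicate 1 or shPRMT6 replicate 2 (adjusted p up to 0.0826), EIF1B in each fit but that without NC replicate 1 (up to 0.103) and EIF1AX without any one shPRMT6 library (up to 0.0728). The plot of the 4 lists shows that the genes past the threshold were spread over both directions in the mTORC1 list and lay mostly below 0 in the RAS, RAF and MAP kinase list.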

How the data were processed

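Total RNA of U87 cells was sequenced in 6 libraries, grouped by their labels into 3 NC and 3 shPRMT6. The authors deposited raw counts per gene and FPKM values for each library. The submitters' processing notes name HISAT2, HTSeq 0.13.5 and GRCh38; the annotation release, use of strand and the tool behind FPKM are not given in the sources used here. A count of 4 was held by 1240 to 1399 genes of a library, against 398 to 421 at 3 and 223 to 269 at 5, so 1 count may not be 1 read and no counting interval was given. No replicate was a copy of another (chi-square over its degrees of freedom was 52.2 or more for each pair of a group).

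Counts were tested with edgeR 4.0.16 in R 4.3.3 (quasi-likelihood test, TMM factors 0.992 to 1.01, default filter on low counts, Benjamini-Hochberg adjustment, no block), which left 18106 genes. CPM follow that scaling, and FPKM were used as deposited. Alternatives were DESeq2 1.42.0, limma 3.58.1 on log2(FPKM + 1) or log2(FPKM + 0.1) with genes under a mean FPKM of 1 left out or kept, other factors and filters, a replicate block, merged counts and each library left out. Code was tested on simulated data. Exons and 75-base stretches were taken from GENCODE 29, which holds 58394 of the 60612 gene identifiers, and 60401 had a symbol.

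The members and lists were chosen with earlier results of these data known. Named are all members, PRMT6, the neighbours of EIF4A1, the 4 smallest p in each direction of each list past an adjusted p of 0.05 (2 for readthrough genes), and the 5 genes most like MKNK2. Some genes under this rule are not reported here.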

Additional observations from a re-analysis of the deposited data

How the results depend on the processing

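The count of genes past an adjusted p of 0.05 was 3362 and ran from 1755 to 3183 when each library was left out in turn. The count over the 4 pathway lists ran from 10 to 25 in those fits (23 with all libraries), and that of the readthrough genes from 4 to 9. With a replicate block the counts were 1858 over all genes, 14 over the pathway lists and 8 of the readthrough genes, and PRMT6 was not past the threshold (adjusted p = 0.0803). Same-numbered libraries did not deviate together over all genes (correlations of -0.0248, -0.0171 and -0.0301, and 0 of 3 numbers matched best with themselves). No pairing by number was thus seen, though these values cannot exclude one. SENP3-EIF4A1 was highest in replicate 2 of both groups (216 CPM in NC, 49.9 CPM in shPRMT6). With the block its log2 difference stayed at -2.07, and its SE was 0.158 in place of 0.548. At an adjusted p under 0.01, 1320 genes and 8 pathway genes passed, and at an absolute log2 difference above 1 with an unadjusted p under 0.05, 1072 genes and 1 pathway gene. DESeq2 called 15 readthrough genes, limma on log2(FPKM + 1) called 4 and on log2(FPKM + 0.1) called 3. Limma without the filter called 15 pathway genes. On log2(FPKM + 1), with or without the filter, the log2 difference of MKNK2 was -1.30, since the added 1 shrinks the difference of low values. EIF4A1 moved from 0.37 to -0.03 when SENP3-EIF4A1 was added to it and to 0.03 when SENP3 was added as well. Left out in turn, the libraries gave log2 differences from 0.26 to 0.63 for MKNK1, -1.60 to -1.52 for MKNK2, 0.16 to 0.57 for EIF4A1 and -2.64 to -1.45 for SENP3-EIF4A1. The order of the members by level in NC was the same by CPM per kb of merged exons.

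The cause of the changed counts was not tested, except that a stricter adjusted p by construction passes fewer genes. With 3 libraries a group and 1 unnamed shRNA, small differences such as that of EIF4EBP2 could not be settled. The p-values measure the spread between these libraries only.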
